A study of Mus musculus with 19 samples.

Results

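The 200 most abundant olfactory receptor genes of a mouse nasal epithelium data set were examined in 19 sorted-cell RNA-seq libraries. The members were chosen by abundance: they were the 200 of 1124 rows with a symbol beginning with Olfr (Olfr461 left out) that had the largest sum of normalized values over all 19 libraries. Together they held 69.8% of the normalized values of the 1124 genes, of which 1037 had at least 1 read. Because those values chose the members, their summed level and their detection somewhere in the data is given as a description, with no test.

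The cells came from the noses of naive ChAT(BAC)-eGFP mice, which carry the transgene Tg(RP23-268L19-EGFP)2Mik on a B6.Cg background. In these mice a bacterial artificial chromosome carrying the Chat locus drives enhanced green fluorescent protein (eGFP), so a cell is positive when the transgene is active in it, and the eGFP-negative cells came from mice with the same transgene. After dispase and then papain digestion, CD45-EpCAM+eGFP+ cells were sorted by forward and side scatter into a low-scatter group (FSClow/SSClow, here FSClow, 9 libraries) and a high-scatter group (FSChi/SSChi, here FSChi, 5 libraries). CD45-EpCAM+ cells without eGFP formed the comparison group (EpCAM, 5 libraries), with propidium iodide used to leave out dead cells. Nothing in the labels ties a library to its own animal. The p-values therefore rest on the spread between libraries alone, and that spread may be technical.

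Olfactory receptors are seven-transmembrane, G protein-coupled proteins that bind odorants on the cilia of olfactory sensory neurons. Each mature neuron is known to transcribe 1 allele of 1 receptor gene at a high level, so a bulk sample of many neurons shows many receptors and a sample with few neurons shows few. The mouse family falls into class I genes, which lie in a single cluster on chromosome 7, and the more numerous class II genes, which lie in clusters on most chromosomes. In bulk RNA a lower level cannot be split into fewer cells of a type and less RNA per cell.

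Library totals ran from 1348428 counts (FSChi replicate 2) to 7477695 (FSChi replicate 3). The 22 mature olfactory sensory neuron markers had a summed level with a median of 6441 CPM (counts scaled to a library of 1000000) in EpCAM libraries (lowest 5131, highest 8791), 2919 in FSChi (538 to 5872) and 399 in FSClow (283 to 558). The 15 tuft or brush cell markers had medians of 58.0, 12654 and 14031 CPM in the same order, and all 15 were called higher in both eGFP+ groups than in EpCAM. Of the 22 neuron markers, 21 were called lower and 0 higher in FSClow than in EpCAM, and 11 lower and 1 higher in FSChi. Over all genes tested, 23.1% were lower and 22.0% higher in FSClow, and 12.2% and 13.5% in FSChi. In FSChi replicate 2 most of the neuron marker sum came from Gnb1 (224 CPM) and Gng13 (218 CPM), while Cnga2 and Stoml3 were at 0. Omp, the olfactory marker protein of mature neurons, was between 1550 and 2910 CPM in EpCAM. In FSChi it was at 1796, 1.61, 749, 1748 and 729 CPM in replicates 1 to 5, so replicate 2 stood apart, and in FSClow it lay between 0 and 46.4 CPM.

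Each library was deposited both as a column of a count table and as a single-library file of expected counts, and 5 columns did not match best the file carrying their own label. The EpCAM replicate 1 column matched the EpCAM replicate 2 file and the reverse, and the FSChi replicate 3 and 4 columns matched the FSChi replicate 4 and 5 files. The FSChi replicate 5 column matched no file well on the members (highest r across the members 0.24). Since the EpCAM exchange stays within its group it leaves EpCAM sums as they are, whereas the FSChi sums of the 2 sources do not cover the same libraries. Replicate numbers below are those of the count table.

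At a threshold of 1 count, all members but 1 were seen in at least 1 EpCAM library, 140 in at least 1 FSChi library and 118 in at least 1 FSClow library. With only the libraries whose column matched its own file (3 EpCAM, 2 FSChi, 9 FSClow) the numbers were 186, 76 and 118. EpCAM libraries each showed 99 to 146 members, FSChi libraries 26 to 86, and FSClow libraries 21 to 43. With each library thinned to the smallest total, the expected numbers were 77.7 to 125 in EpCAM, 26.0 to 62.8 in FSChi and 17.8 to 28.5 in FSClow, so every EpCAM library lay above every eGFP+ library. Requiring 10 counts in a library, the numbers of members seen became 190, 87 and 15. The summed level of the 200 members had a median of 875 CPM in EpCAM (347 to 1356), 268 CPM in FSChi (81.2 to 819) and 59.6 CPM in FSClow (25.4 to 158). EpCAM and FSClow did not overlap, whereas FSChi overlapped both.

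**Figure D1:**
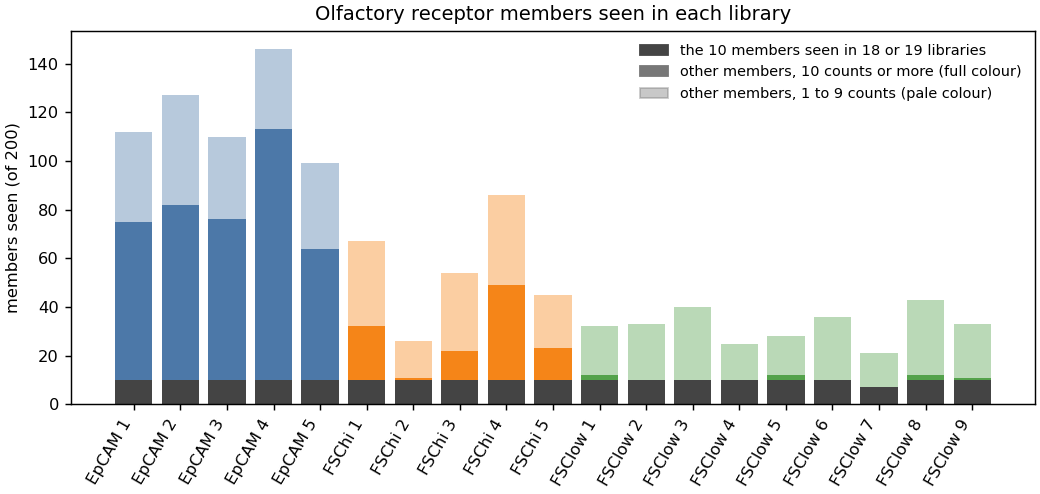
Members seen in each library (vertical axis, of 200) for the 5 EpCAM, 5 FSChi and 9 FSClow libraries. Dark bars are the 10 members seen in 18 or 19 libraries, full colour other members with at least 10 counts, and pale colour other members with 1 to 9 counts; bars total 99 to 146 in EpCAM, 26 to 86 in FSChi and 21 to 43 in FSClow.

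These totals mixed members with unlike distributions. A set of 10 members was seen in 18 or 19 of the 19 libraries: Olfr402, Olfr390, Olfr23 and Olfr397 on chromosome 11, Olfr935, Olfr936 and Olfr937 on chromosome 9, Olfr763 on chromosome 10, and Olfr1446 and Olfr1447 on chromosome 19. This set was formed after the values were seen. All 10 are class II genes. They took 4.84% of the members' counts in EpCAM (1138 of 23521), 9.91% in FSChi (938 of 9467) and 68.6% in FSClow (1293 of 1886). Pooled over each group, as summed counts over summed library totals, they gave 41.5 CPM in EpCAM, 43.2 in FSChi and 46.4 in FSClow, close pooled levels. Library medians were 35.9, 45.6 and 48.4 CPM, and FSClow libraries ran from 11.3 to 74.7. Single members moved both ways: from EpCAM to FSClow mean CPM rose for Olfr397 (0.91 to 3.32) and fell for Olfr1447 (4.69 to 1.01). Pooled in the same way, the other 190 members gave 817, 393 and 21.3, and the order of the groups was that of the neuron markers.

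**Figure D2:**
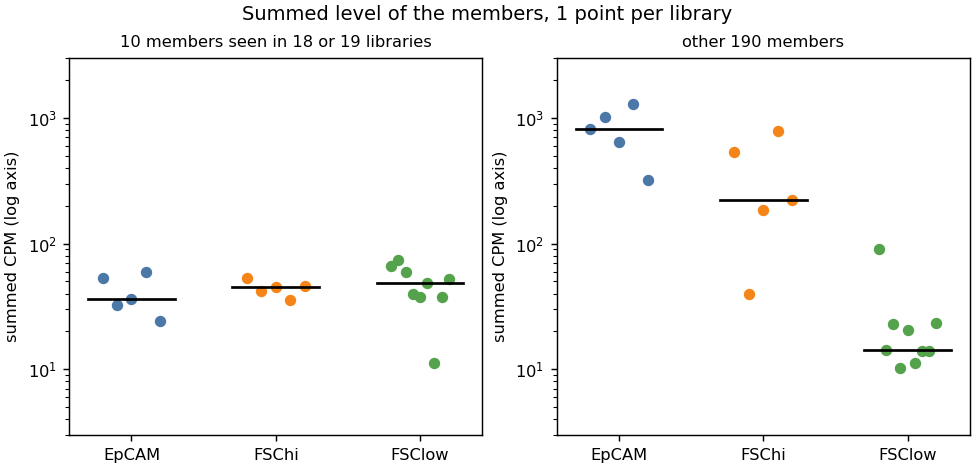
Summed CPM (log axis) of the 10 broadly seen members (left) and of the other 190 members (right), 1 point per library, with a line at each group's median. The left points overlap in all groups, and on the right all 9 FSClow libraries lie at or below 91.2 CPM while all 5 EpCAM libraries lie at or above 323 CPM.

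Among the other 190 members, 189 were seen in EpCAM, 130 in FSChi and 108 in FSClow. At 1 count, 82 were seen in all groups, 47 in EpCAM and FSChi, 34 in EpCAM alone, 26 in EpCAM and FSClow and 1 in FSChi alone. At 10 counts the largest class became EpCAM alone, with 112 members, followed by EpCAM and FSChi with 63. A further 8 members reached 10 counts in FSChi alone, 4 in all groups, 2 in FSChi and FSClow, and 1 in EpCAM and FSClow. Of the 77 members at 10 counts in FSChi, 67 also reached it in EpCAM, which is 87.0% of the FSChi list and 37.2% of the 180 members on the EpCAM list. The FSClow list held 7 members, and the 5 it shared with EpCAM were 71.4% of it and 2.78% of the EpCAM list.

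**Figure D3:**
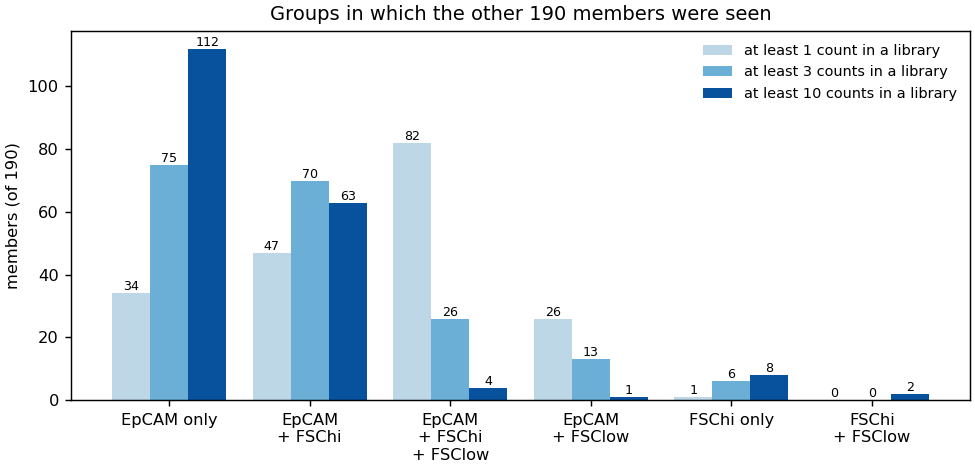
Number of the other 190 members (vertical axis) seen in each combination of groups, at thresholds of 1, 3 and 10 counts in a library. Members seen in EpCAM, FSChi and FSClow fall from 82 at 1 count to 26 at 3 counts and 4 at 10 counts, while members seen in EpCAM alone rise from 34 to 75 and 112.

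Most members drew their reads from few libraries. A single library held a median of 60.8% of a member's normalized sum over the other 190, over 50% for 137 of them and over 90% for 30. For the 10 broadly seen members, which were picked for being seen nearly everywhere, the median was 13.3%. The leading library was an EpCAM library for 145 of the 190 members, an FSChi library for 43 and an FSClow library for 2. Reaching 10 counts in all 5 EpCAM libraries was seen for 3 members, in at least 2 FSChi libraries for 10 members, and in more than 1 FSClow library for 0 members. Any 2 EpCAM libraries shared 17 to 36 members at 10 counts. Among the 4 FSChi libraries with at least 10 such members, any 2 shared 0 to 4.

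Olfr672 (Entrez 258755, GRCm38 chr7:104995964-104996902, minus strand, class I) had the largest normalized sum. Its EpCAM counts were 418, 170, 1, 56 and 67 in replicates 1 to 5, and its FSChi counts were 0, 0, 481, 331 and 0. FSClow libraries held 0 counts of it. The gene was spread over 4 EpCAM libraries with replicate 3 near 0, and all of its FSChi reads came from 2 of 5 libraries.

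Olfr611 (Entrez 258722, chr7:103517411-103518382, minus strand, class I) had 4, 93, 65, 85 and 76 counts in the EpCAM libraries. In FSChi it had 107 counts in replicate 4, 1 in replicate 5 and 0 in the other 3. In FSClow 6 libraries had 0 counts and the highest had 5. Its EpCAM range of 0.79 to 22.1 CPM overlapped the highest FSClow value of 0.86 CPM through EpCAM replicate 1.

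Olfr681 (Entrez 404318, chr7:105121459-105122406, plus strand, class I) had 49, 63, 26, 67 and 10 EpCAM counts. FSChi replicate 4 held 73, replicate 1 held 1 and the other 3 held 0, and all 9 FSClow libraries were at 0. In the count table this gene separated EpCAM from FSClow without overlap, and in FSChi it again rested on replicate 4. In the single-library file of EpCAM replicate 5 it had 0 expected counts, so by that source the groups overlapped at 0.

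Both Olfr611 and Olfr681 have a near-identical copy, so the split of reads between copies is uncertain. Their coding sequences, taken as the longest open reading frame of GENCODE M21 transcripts (GRCm38), were 97.5% identical between Olfr611 and its neighbour Olfr612 (19878 bases apart), with a longest identical run of 342 bases. Olfr681 and Olfr679 were 98.5% identical with a run of 477 bases. By contrast, Olfr611 and Olfr681 were 54.7% identical, with a longest shared run of 14 bases. Olfr612 moved with its copy: it had 1, 34, 23, 105 and 44 counts in EpCAM, 68 in FSChi replicate 4 with 0 in the other FSChi libraries, and at most 6 in an FSClow library. Olfr679 had 13, 26, 8, 21 and 45 counts in EpCAM and 20 in FSChi replicate 4. Its highest EpCAM count was in replicate 5, where Olfr681 had its lowest.

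The receptors of both classes carry a conserved stretch after the third transmembrane segment, which is shown here for leading members because its codons differ in frequency between class I and class II. The 30 coding bases are given 5′ to 3′ on the coding strand, with the third codon of the stretch in capitals; Olfr672, Olfr611 and Olfr681 are class I, and Olfr402 and Olfr763 are class II.
Olfr672: atggccTTTgatcgctacattgccatctgt
Olfr611: atggccTTCgatcggtatgtggccatttct
Olfr681: atggccTTCgatcgctatatagccatctgt
Olfr402: atggctTATgaccgcttcctggccatctgc
Olfr763: atggccTATgaccggtatgctgccatctgc
The stretch was found in 192 members, 57 of class I and 135 of class II. The third codon was TTT or TTC in 37 of 57 class I members (64.9%) and in 11 of 135 class II members (8.15%), and TAT or TAC in 5 (8.77%) and 117 (86.7%) of them. All 10 broadly seen members carried TAT or TAC.

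Class I genes made up a larger part of the members than of the family. Their cluster on chromosome 7 (chr7:102476773-105369317) holds 126 of the Olfr rows, of which 59 (46.8%) were members, against 141 of 997 class II genes (14.1%). Because membership was set by abundance, this is a description of where reads fell. Of the reads of the other 190 members, class I genes held 40.1% in EpCAM, 40.8% in FSChi and 45.4% in FSClow. The FSClow share rested on replicate 1, without which it was 27.9% (114 of 409 counts).

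The leading EpCAM members besides Olfr672 were spread over several libraries. Olfr610 (class I) had 87, 175, 70, 119 and 0 counts in EpCAM replicates 1 to 5 and 0 in all 14 eGFP+ libraries. Olfr115 (class II, chromosome 17) had 142, 162, 0, 134 and 0 in EpCAM and likewise 0 in the eGFP+ libraries. Olfr1176 (class II, chromosome 2) had 0, 19, 116, 288 and 13 in EpCAM, 0 in FSChi and 3 counts in FSClow. These genes were therefore found in EpCAM at levels that still left 1 or 2 of its libraries at 0. The pooled EpCAM level of Olfr610 (summed counts over summed scaled totals) was 115-fold the floor of 3 counts over FSChi and 152-fold that over FSClow. Without EpCAM replicate 2 these folds were 82.7 and 110. Such a fold bounds only the group at 0 and leaves out the spread between the libraries of the higher group.

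Several leading members had their FSChi reads in 1 library. Olfr549 (class I) had 402 counts in FSChi replicate 1, 1 in replicate 4 and 0 in the other 3, against 29, 14, 0, 149 and 0 in EpCAM. Olfr1511 (class II, chromosome 14) had 346 counts in FSChi replicate 1, 1 in replicate 4 and 0 elsewhere in FSChi, with 11, 12, 79, 0 and 19 in EpCAM. Olfr552 (class I) had 173 counts in FSChi replicate 1, with 28, 144, 0, 200 and 0 in EpCAM. In FSChi replicate 1 these receptors were high together, and FSChi replicate 4 held another set. There Olfr969 had 233 counts, Olfr812 had 281 and Olfr247 had 250, and Olfr969 and Olfr812 were at 0 in the other 4 FSChi libraries. Olfr247 also had 163 counts in replicate 3.

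The number of receptors that made up the reads differed between libraries. Of the reads of the other 190 members, the leading receptor held 17.7% (95% Wilson interval 16.2 to 19.3) in FSChi replicate 1 (Olfr549), 34.7% (32.2 to 37.2) in replicate 3 (Olfr672) and 7.89% (7.11 to 8.74) in replicate 4 (Olfr672); these shares are of counts, without correction for gene length, and the intervals cover counting error only. The most abundant receptors that together made up 50% of those reads numbered 15 to 30 in EpCAM libraries and 5, 3, 3, 10 and 5 in FSChi replicates 1 to 5. FSChi replicate 2 had 16 of the 190 members, 1 of them at 10 counts, beside its Omp level of 1.61 CPM. The summed level of the 190 members was 534, 39.4, 186, 783 and 222 CPM in FSChi replicates 1 to 5. Replicates 1 and 4 were highest and replicate 2 lowest both by this sum and by Omp. The part of sensory neurons in the FSChi receptor reads was not tested.

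In FSClow the other 190 members were seen by few reads, 593 in all 9 libraries. Of the 108 members seen, 39 had 3 counts in a library and 7 had 10 counts, each in a single library. Olfr69 (class I, chr7:103767277-103771594) had 116 counts in FSClow replicate 1 and 0 in the other 8 FSClow libraries, beside 18 in FSChi replicate 1 and at most 4 in an EpCAM library. It held 63.0% (55.9 to 69.7) of that library's reads of the 190 members. Its neighbour Olfr68, 5801 bases away and named after its values were seen, had 34 counts there, and both made up 150 of 184 counts (81.5%). In the single-library file of FSClow replicate 1, Olfr69 had 63.0 expected counts and Olfr68 had 0. The other 5 members at 10 counts, also named after their values were seen, were Olfr596 and Olfr603 with 14 counts each in replicate 5, Olfr237-ps1 and Olfr24 with 11 each in replicate 8, and Olfr1247 with 13 in replicate 9. Replicates 1 and 9 also had the highest Omp levels of the group, 36.7 and 46.4 CPM, and the part of neurons in these reads was not tested. A count of 0 over the 9 FSClow libraries allows up to 0.107 CPM (3 counts), and 82 of the 190 members were at 0 there.

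**Figure D4:**
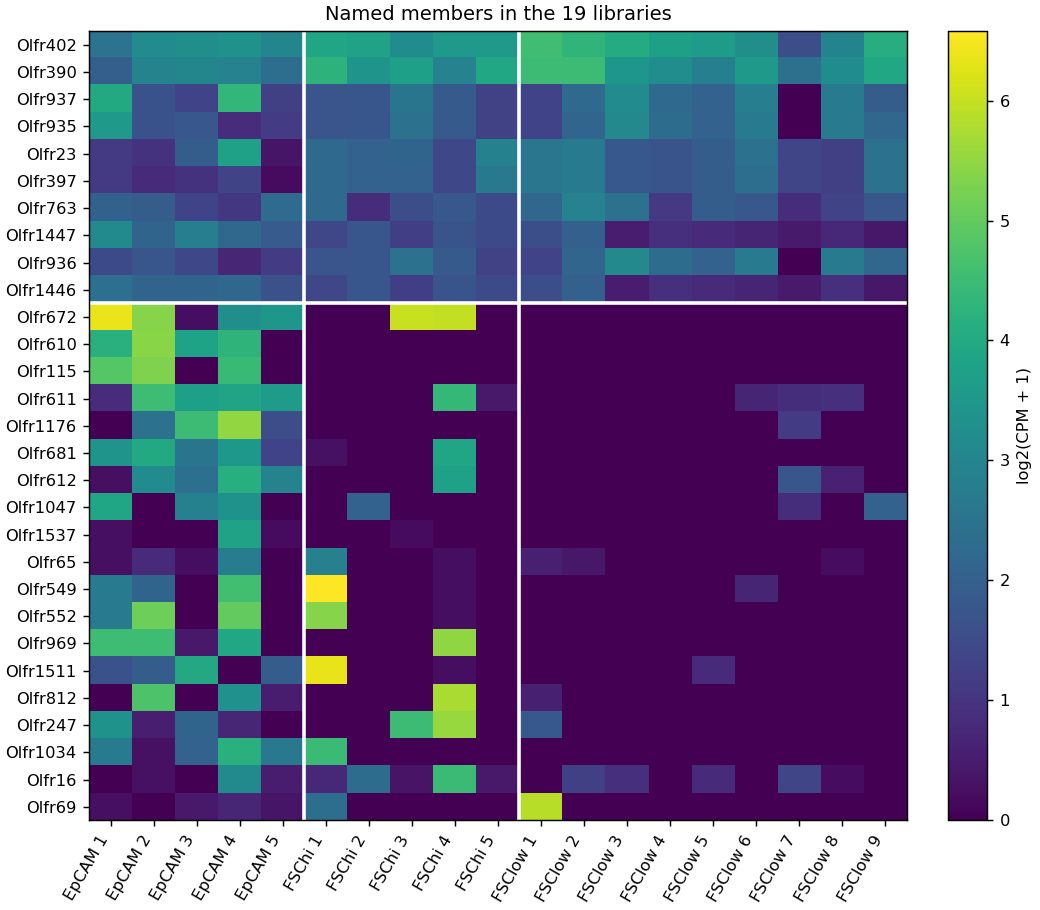
log2(CPM + 1) of the members named by rule and the rest of the 10 broadly seen members (rows) in the 19 libraries (columns), with white lines between groups and below the broadly seen members. The upper rows are filled in nearly every library, and the lower rows are patchy in EpCAM and FSChi and mostly dark in FSClow, where Olfr69 in replicate 1 is the brightest of them at 57.5 CPM.

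The broadly seen members were spread over the libraries, as the way they were chosen requires. Olfr402 (Entrez 258703, chr11:74155156-74156103, plus strand) had 24, 34, 46, 59 and 47 counts in EpCAM, 58, 16, 61, 58 and 30 in FSChi, and 5 to 55 with a median of 40 in FSClow. Olfr390 (Entrez 258344, chr11:73786940-73787875, plus strand) had 15, 28, 38, 42 and 28 counts in EpCAM, 77, 12, 90, 35 and 40 in FSChi, and 11 to 64 with a median of 35 in FSClow. Both were seen in all 19 libraries. In FSClow replicate 7 the counts of Olfr935, Olfr936 and Olfr937 were 0, and that library had the lowest summed level of the set, 11.3 CPM.

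Several of these genes had equal counts. Olfr935 and Olfr936 had the same count in all 14 eGFP+ libraries, Olfr1446 and Olfr1447 in 13 of 14, and Olfr23 and Olfr397 in 11 of 14 with a largest difference of 3. In EpCAM the equality ended: the pairs were equal in 1, 2 and 1 of 5 libraries, and Olfr23 had 81 counts in replicate 4 where Olfr397 had 10. Olfr937 had 76 and 125 counts in EpCAM replicates 1 and 4 against 8 or 9 in the other 3, and Olfr935 had 55 in replicate 1 against 5 to 13 in the others. These 3 genes thus had high values in 1 or 2 EpCAM libraries above a low level in the others.

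Sequence likeness within the pairs varied, and 75 coding bases from the start of the conserved stretch are printed to show it, with the bases that differ within a pair in capitals. Over whole coding sequences Olfr1446 and Olfr1447 were 95.2% identical (longest shared run 130 bases), and Olfr23 and Olfr397 were 72.5% identical (41 bases). The stretch begins at coding base 352 in Olfr23 and at 409 in Olfr397, so unlike starts of the reading frames may lower that identity. For Olfr935 and Olfr936 the longest run was 100 bases, and no whole-length identity is given because the open reading frame of Olfr936 (804 bases) begins later than that of Olfr935 (927 bases).
Olfr1446: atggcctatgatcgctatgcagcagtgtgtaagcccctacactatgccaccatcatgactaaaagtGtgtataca
Olfr1447: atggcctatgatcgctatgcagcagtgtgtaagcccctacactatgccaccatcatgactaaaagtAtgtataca
Olfr935: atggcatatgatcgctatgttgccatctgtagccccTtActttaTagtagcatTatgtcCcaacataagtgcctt
Olfr936: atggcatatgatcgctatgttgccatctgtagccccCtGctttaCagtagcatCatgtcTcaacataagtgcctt
Olfr23: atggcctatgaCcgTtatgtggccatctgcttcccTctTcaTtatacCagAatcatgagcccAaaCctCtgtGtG
Olfr397: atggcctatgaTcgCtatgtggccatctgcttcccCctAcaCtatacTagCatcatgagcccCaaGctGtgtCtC
In these windows 1, 5 and 12 of the 75 positions differed. Near copies outside the set of 10, named after their values were seen, were Olfr9 for Olfr763 (96.4% identical), Olfr146 for Olfr935 (91.3%) and Olfr410 for Olfr402 (89.4%). The reading frames of Olfr402 and Olfr410 differ in length (1014 and 948 bases), which bears on that identity. An identical run of at least 50 bases with another Olfr coding sequence was found in 9 of the 10 broadly seen members, in 119 of 189 other members (63.0%) and in 734 of all 1108 Olfr genes with a coding sequence (66.2%), so shared stretches were common in the whole family.

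The single-library files of expected counts gave another picture of these 10 genes. In FSClow, where every column matched its own file, the 10 genes had 1293 counts in the count table and 2.00 expected counts in the files (0.155% of the former). The other members, over the 185 listed in both sources, had 584 counts and 191 expected counts there (32.8%). In EpCAM the broadly seen genes kept 218 expected counts against 1138 counts (19.2%) and the other members 12309 against 21982 (56.0%). Of the 218, Olfr937 held 108, Olfr23 held 40 and Olfr1447 held 33.8, which were genes with high values in 1 or 2 EpCAM libraries or with higher EpCAM levels in the count table, and Olfr402 had 2.10. In FSChi the 10 genes had 0 expected counts. Which reads the count table assigned to these 10 genes and the files did not was not tested, and for them a level in the count table is reported as uncertain.

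**Figure D5:**
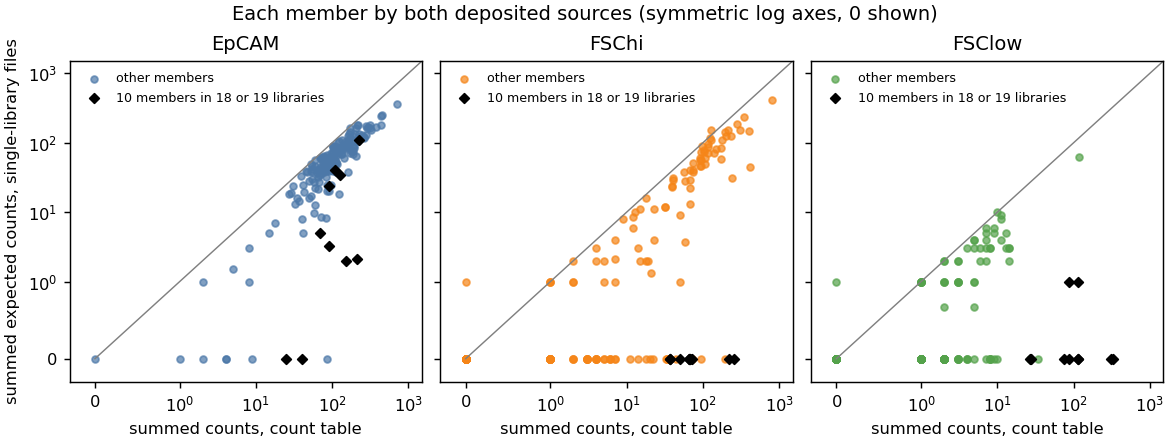
Summed counts of the count table (horizontal axis) against summed expected counts of the single-library files (vertical axis) for the 195 members in both sources, 1 panel per group, on symmetric log axes with 0 shown and a line of equality. Coloured circles (other members) lie mostly below the line, and black diamonds (the 10 broadly seen members) lie at 0 or far below it in FSChi and FSClow.

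Differences between groups were tested with edgeR's quasi-likelihood test over the 13340 genes that passed the filter on low counts, with p-values adjusted over all of them (Benjamini-Hochberg). The filter, which asks for reads in at least as many libraries as the smallest group holds, let through 15 members, 9 of them broadly seen, and left out 185. Each of the 6 other members tested had at most 9 counts in any FSClow library and passed mostly through EpCAM and single FSChi libraries, so a lower level in FSClow was built into their selection, and their count is no support for a difference. Olfr1446 was the broadly seen member left out.

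FSClow against EpCAM gave 7 members called lower and 2 called higher at an adjusted p under 0.05. Of all genes tested, 23.1% were called lower and 22.0% higher. The members called lower were Olfr672, Olfr611, Olfr681, Olfr1034, Olfr612, Olfr1047 and the broadly seen Olfr1447. The median log2 fold change of the 15 members was -1.02, beside 0.05 for all genes. A lower FSClow level was built into the selection of the called members that are not broadly seen. The median and the p-values of those members are therefore descriptions and no support for a difference. Olfr611 fell by 5.19 on the log2 scale (SE 1.12, adjusted p 0.000564 by edgeR), and it kept its call in all 28 alternative fits that tested it. The pooled EpCAM level of Olfr681, at 0 in FSClow, was 72.6-fold the 3-count floor (adjusted p 0.00108 by edgeR), and 60.6-fold without EpCAM replicate 2. Its call was also kept in 28 of 28. Olfr672 was in pooled EpCAM counts 241-fold the same floor (adjusted p 0.0162 by edgeR), and 122-fold without EpCAM replicate 1. It lost its call in 1 of 28 fits, with the replicate number as a block (adjusted p 0.164). All these fits share the same choice of members, so a kept call is no separate support.

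Olfr1034 (class II, chromosome 2) had 28, 1, 17, 109 and 35 counts in EpCAM, 91 in FSChi replicate 1 with 0 in the other FSChi libraries, and 0 in FSClow. Its pooled EpCAM level was 64.2-fold the 3-count floor of FSClow (adjusted p 0.00911 by edgeR), and 35.6-fold without EpCAM replicate 4. Olfr1047 (class II, chromosome 2) had 69, 0, 34, 59 and 0 counts in EpCAM, 4 in FSChi replicate 2, and 2 and 9 in FSClow replicates 7 and 9. It fell by 3.71 in FSClow (SE 1.17, adjusted p 0.0118 by edgeR), with groups that overlapped at 0, and DESeq2 gave an adjusted p of 0.266. Olfr1447 had 2.71 to 7.85 CPM in EpCAM and 0.35 to 3.07 CPM with a median of 0.69 in FSClow, and fell by 2.21 (SE 0.49, adjusted p 0.000692 by edgeR). It had 0 expected counts in FSClow, so this call is as uncertain as the levels of the other broadly seen members. Olfr1446, which did not pass the filter, had means of 3.34 ± 0.80 CPM (SD, n = 5) in EpCAM, 1.88 ± 0.44 (n = 5) in FSChi and 1.03 ± 0.91 (n = 9) in FSClow.

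The members called higher were Olfr390 and Olfr397, both broadly seen. Olfr390 was at 2.95 to 7.11 CPM in EpCAM and 4.43 to 21.8 CPM with a median of 10.1 in FSClow, overlapping ranges, a log2 difference of 1.09 (SE 0.38, adjusted p 0.0234 by edgeR). Olfr397 was at 0.15 to 1.56 CPM in EpCAM and 1.37 to 5.46 CPM with a median of 2.87 in FSClow, a log2 difference of 1.82 (SE 0.53, adjusted p 0.00654 by edgeR). Both calls concern genes with 0 expected counts in the FSClow files. Olfr390 lost its call with relative log expression scaling (adjusted p 0.0620), which moved the median of all genes from 0.05 to -0.14, and without FSClow replicate 2 (0.0767), EpCAM replicate 1 (0.104) or EpCAM replicate 5 (0.0564). With only the libraries whose column matched its own file the adjusted p was 0.167 for Olfr390 and 0.0672 for Olfr397. The count of members called higher was 4 without FSClow replicate 7. The count called lower was 20 to 27 without any 1 of the FSChi libraries and 11 to 21 without EpCAM replicate 1, 3, 4 or 5, since more members then passed the filter (up to 35). Without the low-count filter 139 of all 200 members were called lower and 2 higher in FSClow, beside 21.3% and 10.7% of the 24209 genes then tested. An EpCAM library led the summed value that chose 145 of the other 190 members. The count called lower is therefore no support for a difference.

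FSChi against EpCAM gave 2 members called higher, Olfr390 and Olfr397, and 1 called lower, Olfr1047. The background was 13.5% higher and 12.2% lower, so the members' counts were near it. Olfr397 was at 1.68 to 5.32 CPM in FSChi, above all 5 EpCAM libraries, with a log2 difference of 1.88 (SE 0.57, adjusted p 0.0183 by edgeR), and lost its call in 3 of 26 alternative fits. Those were the fits without FSChi replicate 5 (0.0612), without the low-count filter (0.0570) and with only the libraries whose column matched its own file (0.183). The call of Olfr390 (log2 difference 1.14, SE 0.42, adjusted p 0.0484 by edgeR) was lost in 22 of 26 alternative fits, and that of Olfr1047 in 14 of 24. Olfr611 and Olfr681 had fitted log2 differences of -1.44 (SE 1.06) and -1.44 (SE 1.17), with adjusted p of 0.348 and 0.410 by edgeR. In both genes 1 FSChi library lay at the EpCAM level and the others at or near 0. The number called lower was 6 to 9 without any 1 FSChi library, 3 without FSClow replicate 2, 4 without EpCAM replicate 5, 2 without FSClow replicate 4, 5 or 7 or EpCAM replicate 4, and 0 without EpCAM replicate 3. Without the low-count filter 62 members were called lower and 5 higher, beside 7.72% and 6.7% of all genes. The choice of members by summed level also bears on these counts, which are no support for a difference.

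FSChi against FSClow gave 4 members called higher, Olfr672, Olfr611, Olfr681 and Olfr1034, and 0 called lower, beside a background of 15.5% and 9.3%. At an unadjusted p under 0.05 by edgeR the count in either direction was 5 of the 15 members tested. DESeq2, which tested 144 members, called 16 higher and 0 lower. No share over all genes is given for these counts, so they are no support for a difference. The pooled FSChi level of Olfr672 was 360-fold the 3-count floor (adjusted p 0.0313 by edgeR), from FSChi replicates 3 and 4, and 227-fold without replicate 3. The reads behind each call came almost all from 1 or 2 FSChi libraries. With the replicate number as a block 0 of the 4 calls remained, with adjusted p of 0.342 for Olfr672, 0.0820 for Olfr611, 0.0923 for Olfr681 and 0.168 for Olfr1034. Without FSChi replicate 4 the adjusted p of Olfr611 rose from 0.0194 to 0.431 with its sign turned, that of Olfr681 from 0.0134 to 0.393, and that of Olfr672 from 0.0313 to 0.0651. Without FSChi replicate 3 the adjusted p of Olfr672 was 0.0583, and without FSChi replicate 1 that of Olfr1034 went from 0.0279 to 1. With only the libraries whose column matched its own file, the adjusted p was 0.379 for Olfr611, again with its sign turned, 0.309 for Olfr681 and 1 for Olfr672. The number called higher was 8, 15, 11 and 13 without FSChi replicates 1, 2, 3 and 5, and 7, 7, 10 and 11 without EpCAM replicates 1, 3, 4 and 5, with more members tested. Without the low-count filter 36 members were called higher and 0 lower, beside 10.7% and 3.91% of all genes. This count and the p-values of the 4 called members are no support either, since an FSClow library led for only 2 of the other 190 members.

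The genes that set and carry receptor expression were examined as lists chosen with earlier results of these data known. Of 26 genes for receptor choice and trafficking, 14 were called lower and 3 higher in FSClow than in EpCAM, 13 lower and 1 higher in FSChi than in EpCAM, and 11 higher and 4 lower in FSChi than in FSClow. Over all genes tested, 23.1% were lower and 22.0% higher in the first comparison, and 12.2% and 13.5% in the second. In the third, 15.5% were higher and 9.3% lower. The median log2 fold changes of the list were -1.10, -0.99 and 0.10, beside 0.05, -0.02 and -0.01 for all genes. Rtp2, a chaperone that brings receptors to the membrane, fell by 10.33 in FSClow (SE 0.66, adjusted p 1.19e-11 by edgeR) and by 2.31 in FSChi (SE 0.45, adjusted p 0.000516). Ebf1, a transcription factor of olfactory neurons with sites at receptor promoters, fell by 9.65 (SE 0.65) and 2.25 (SE 0.50). The related Ebf2 and Ebf3 fell by 8.70 and 7.04 in FSClow.

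Of the odorant transduction genes, 18 were tested. In FSClow 14 were called lower and 3 higher than in EpCAM, in FSChi 6 lower and 4 higher, and 16 were higher and 0 lower in FSChi than in FSClow. The shares over all genes were 23.1% lower and 22.0% higher, 12.2% and 13.5%, and 15.5% higher and 9.3% lower. Gnal, the G protein alpha subunit that receptors activate, fell by 4.72 in FSClow (SE 0.40, adjusted p 2.28e-09 by edgeR) and by 1.63 in FSChi (SE 0.45, adjusted p 0.00920). Ric8b, which keeps that subunit stable, fell by 2.20 in FSClow (SE 0.19). Ano2, the chloride channel of the cilia, had a log2 difference of -9.53 (SE 0.66) there, and Pde4a, a cyclic AMP phosphodiesterase, of -8.69 (SE 0.63). The summed level of this list had a median of 7384 CPM in EpCAM, 4224 in FSChi and 907 in FSClow, and that of the receptor choice list 1731, 753 and 769. Rgs2, Camk2b, Grk3 and Gng13 of the transduction list, named after their values were seen, had higher mean CPM in both eGFP+ groups than in EpCAM.

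The trace amine-associated receptors (Taar), another receptor family of the main olfactory epithelium, had 1688 counts in EpCAM, 506 in FSChi and 26 in FSClow over 15 genes. Of the 3 tested, 3 were called lower in FSClow than in EpCAM and 2 higher in FSChi than in FSClow. The shares over all genes were 23.1% and 15.5%. No Taar gene was among the members by construction.

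At the edge of the set, the last members, Olfr1537 and Olfr65, had normalized sums of 49.5 and 49.4, while the next genes outside it, Olfr1297 and Olfr787, had 49.2 and 48.7. Olfr1537 had 83 of its counts in EpCAM replicate 4, with 1 count each in EpCAM replicates 1 and 5 and FSChi replicate 3. Olfr65 had 38 in EpCAM replicate 4 and 27 in FSChi replicate 1. Olfr16 was seen in all 5 FSChi libraries with 3, 5, 2, 114 and 1 counts, and in 5 of 9 FSClow libraries with at most 4.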

How the data were processed

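RNA from sorted nasal epithelial cells was sequenced in 19 libraries. The authors deposited a table of whole-number counts per gene, a table of normalized values (signal: counts divided by a size factor per library, from which 100% of values returned whole reads within 0.01), and single-library files with expected counts and TPM values per gene, the latter not used here. The reads recovered for the 200 members equal the count table in every library, so the count test is the test of both. The submitters' processing notes name STAR 2.4.2a, RSEM 1.2.21, Picard, featureCounts and DESeq2 and the build mm10, with no role given for each. Which program made which file is not given in the sources used here.

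The members and gene lists were chosen with earlier results of these data known. Count rows were named through RefSeq (198 members by symbol, the other 2 by identical counts), and rows without a symbol held 0.982% of counts. Counts were tested with edgeR 4.0.16 (TMM scaling, filterByExpr, quasi-likelihood fit on all 19 libraries with 3 groups, Benjamini-Hochberg adjustment, threshold 0.05). The fit was also run on data simulated from these libraries. There genes changed across the whole FSClow group, unlike members with reads in few libraries. CPM uses TMM-scaled totals. DESeq2 1.42.0 in R 4.3.3 and rounded expected counts were alternatives, and 5 members have no expected counts in the files. Olfactory receptor clusters were split at gaps of over 1000000 bases. Coding sequences came from GENCODE M21 (a minimum of 800 bases; Biopython 1.88 for alignment). RefSeq start windows lay within 50 bases of the GENCODE gene start for 14 of 164 members, so promoter motifs were not compared. Replicate numbers were not used for pairing, since the labels give no shared animal or day.

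Named genes are Olfr611 and Olfr681, the 10 largest sums, the 5 highest means of each group, every called member, the 5 members seen in most libraries of FSChi and of FSClow, the 2 last members and the 2 next genes, and up to 4 genes of each pathway list with the smallest p in FSClow against EpCAM.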

Additional observations from a re-analysis of the deposited data

Results flagged for a closer look

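Of 82 groups of libraries examined for a single value far from the rest, 31 values stood apart by Dixon's test at its 95% limit. Its rate of about 1 flagged group in 20 by chance holds only for normally distributed values. A group with reads in only 1 library is always flagged, so the number flagged is not compared with that rate. The members' summed level in FSClow replicate 1 was 158 CPM, and 91.2 CPM without the 10 broadly seen members. Olfr69 at 57.5 CPM, Olfr247 at 2.48 and Olfr812 at 0.496 also stood apart in that library. The 3 are the lone or highest FSClow values of genes at or near 0 in the rest of the group.

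FSChi replicate 1 stood apart for Olfr549 (94.5 CPM), Olfr1511 (81.4), Olfr552 (40.7), Olfr1034 (21.4), Olfr65 (6.35) and Olfr69 (4.23). FSChi replicate 4 stood apart for Olfr812 (52.5), Olfr969 (43.5), Olfr16 (21.3), Olfr611 (20.0), Olfr681 (13.6) and Olfr612 (12.7). FSChi replicate 2 stood apart for Olfr1047 (3.21) and FSChi replicate 3 for Olfr1537 (0.134, a single read).

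EpCAM replicate 4 stood apart for Olfr549 (23.2), Olfr1537 (12.9), Olfr23 (12.6), Olfr16 (7.79) and Olfr65 (5.92), EpCAM replicate 3 for Olfr1511 (14.8), and EpCAM replicate 1 for Olfr935 (10.8). In FSClow, values stood apart for Olfr1047 in replicate 9 (3.17), Olfr612 and Olfr1176 in replicate 7 (2.42 and 1.21), Olfr1511 in replicate 5 (0.717) and Olfr549 in replicate 6 (0.605). Olfr23 and Olfr935 are broadly seen members, and their EpCAM peaks are among the reads that the expected counts keep.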

How the results depend on the processing

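The calls depended on how many members passed the low-count filter, which ran from 3 (expected counts) to 200 (no filter), with 15 in the fit reported. In the order FSClow against EpCAM higher and lower, FSChi against EpCAM higher and lower, and FSChi against FSClow higher (main 2, 7, 2, 1 and 4), the counts were 2, 139, 5, 62 and 36 without a filter, 2, 13, 1, 2 and 7 with 10 counts in 5 libraries, 2, 58, 3, 20 and 16 by DESeq2, 1, 7, 1, 1 and 4 with relative log expression scaling, and 2, 7, 1, 1 and 4 with upper-quartile scaling. Expected counts gave 0, 3, 0, 0 and 3, and without the nearly empty FSChi replicate 3 file, added after seeing the data, 0, 12, 0, 4 and 5. With the 14 libraries whose column matched its own file, also added after seeing the data, they were 0, 57, 0, 14 and 13. Leaving out 1 library at a time gave 1 to 4, 7 to 27, 0 to 2, 0 to 9 and 4 to 15, with the highest lower counts without FSChi replicates 2 (27) and 5 (26), where more members passed the filter. No member was called lower in FSChi than in FSClow under any of these. Shares over all genes are given above only for the main fit and the fit without a filter. The members tested numbered 21 with 10 counts in 5 libraries and 144 or 145 by DESeq2. They numbered 73 with the matched libraries and 13 with expected counts without the FSChi replicate 3 file. The counts called are therefore not comparable between fits. Since summed level chose the members, none of these counts is support for a difference. Olfr611 in FSChi against FSClow reversed to -1.68 without FSChi replicate 4 and to -3.24 with the matched libraries; leaving out a library gave -1.68 to 4.38, and the cause was not tested.

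With the replicate number as a block, the counts were 3, 6, 1, 3 and 0. Correlations of same-numbered deviations ran from -0.19 to 0.40. Differently numbered libraries were not compared and several column labels are in doubt. Whether the numbers pair the libraries was therefore not settled. The block ended all 4 calls in FSChi against FSClow.

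Members seen became 112 and 87 in FSChi and 49 and 15 in FSClow at 3 and 10 counts, 78 and 49 with expected counts rounded to whole numbers (47 in FSClow at 1 or more before rounding), and 76 in FSChi with matched libraries. Leaving out a library gave 115 to 137 in FSChi and 105 to 115 in FSClow. Summed CPM medians ran from 777 to 965, 250 to 428 and 58.7 to 67.8. In FSClow the median was 5.21 with expected counts and 14.3 without the 10 broadly seen members. Ranking the genes without 1 library kept 164 to 200 of the members. Few reads limit FSClow: 593 over 190 members and 9 libraries.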
